A study of Mus musculus with 8 samples.

Results

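To see what deletion of *Rtel1* did where RNaseH1 was not induced, the DRIP-seq peak list of Cre mock cells was set against that of GFP mock cells, in both directions and gene by gene. A peak was called shared when it overlapped any peak of the other list by at least 1 bp. Of the 91097 Cre mock peaks, 59048 (64.8%) overlapped no GFP mock peak, and of the 87613 GFP mock peaks, 53913 (61.5%) overlapped no Cre mock peak. Together the mock lists hold 178710 of the 344010 peaks of the 4 lists in the series. Of the 21951 protein-coding genes of the GENCODE M21 annotation, 2988 had peaks in Cre mock only within their body or within 1 kb to either side of a start site, and 1767 had peaks in GFP mock only. Most genes whose body or start site was marked in either list were marked in both, at 10020 genes, and 7176 genes had no peak in either.

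The cells were mouse embryonic fibroblasts (MEFs) of the line Rtel1F/F;WT RNH1-GFP, in which both alleles of *Rtel1* are floxed and a wild-type RNaseH1 fused to GFP can be induced with doxycycline. GFP mock cells received adenovirus expressing GFP and kept *Rtel1*, and Cre mock cells received adenovirus expressing Cre and GFP, which deletes it. All groups carry the RNaseH1 transgene. In the doxycycline counterparts, Cre DOX and GFP DOX, the drug was added at 2 µg/ml 48 h after infection and cells were collected 48 h later, and the mock groups had no doxycycline. For each condition 3 S9.6 immunoprecipitations of restriction-digested DNA were pooled into 1 library, so there are no replicates, and a difference between genotypes cannot be told apart from a difference between libraries. No test between conditions was made. Intervals on shares are exact (Clopper-Pearson) at 95% and cover counting error only. Read totals are not part of the peak lists, so depth is unknown.

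R-loops form when a transcript pairs with its DNA template and leaves the other DNA strand single. The displaced strand, where rich in guanine, can fold into a G-quadruplex (G4), and both structures can stall replication forks. RTEL1 is a helicase that unwinds G4s and displaced loops, at telomeres and elsewhere, and RNaseH1 digests the RNA strand of the hybrid. The S9.6 antibody recognises the hybrid itself. R-loops are found mainly in transcribed genes, at CpG-rich start sites and near transcript ends, so a DRIP peak marks where hybrids were recovered and is no direct measure of the level of a transcript.

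The sequences below are the highest-scoring start-site peaks with no other-list peak in any start window of the gene, limited to peaks of at most 300 bp outside untranslated exons, and none of them overlaps a peak of the other list. They show what kind of sequence stands behind a start-site call in a single list. Start sites are those of every annotated transcript, so some lie deep inside a gene. The *Scn3a* peak is at such an internal start, and so is that of *Grip2*, 19.3 kb from the gene's start. Letters come from the mm10 (GRCm38) plus strand, and capitals mark runs of at least 3 G or 3 C, the blocks from which G4s are built on the plus or the minus strand. The scores are the peak caller's −log10 q-values times 10. Of the Cre mock peaks, that of *Cyp2c29*, a cytochrome P450 of the liver, lies in an intron of the gene and of an overlapping pseudogene at chr19:39269755-39269911 (score 92, 7.16-fold enrichment over background, 94.3% repeat-masked). That of *Scn3a*, a neuronal sodium channel, overlaps a coding exon at chr2:65498970-65499105 (score 79, 6.76-fold). That of *Reep1*, which shapes the endoplasmic reticulum of neurons, lies in an intron at chr6:71708040-71708223 (score 78, 6.64-fold).
Cyp2c29: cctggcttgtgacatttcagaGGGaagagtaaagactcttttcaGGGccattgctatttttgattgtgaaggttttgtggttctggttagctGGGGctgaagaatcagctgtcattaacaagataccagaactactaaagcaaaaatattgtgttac
Scn3a: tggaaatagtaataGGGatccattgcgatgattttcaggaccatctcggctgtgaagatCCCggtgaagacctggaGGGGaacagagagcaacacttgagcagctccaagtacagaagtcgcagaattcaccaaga
Reep1: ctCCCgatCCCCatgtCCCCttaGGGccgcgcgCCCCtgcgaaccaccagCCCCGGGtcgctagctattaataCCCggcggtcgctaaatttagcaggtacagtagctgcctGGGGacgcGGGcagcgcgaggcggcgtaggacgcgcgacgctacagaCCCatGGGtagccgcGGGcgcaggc

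The GFP mock peaks chosen in the same way lie upstream of *0610009B22Rik* at chr11:51688927-51689070 (score 60, 5.89-fold), upstream of the lens crystallin gene *Crygd* at chr1:65064279-65064384 (score 59, 5.56-fold) and in an intron of *Grip2*, a scaffold of glutamate receptors, at chr6:91807923-91808045 (score 58, 5.78-fold).
0610009B22Rik: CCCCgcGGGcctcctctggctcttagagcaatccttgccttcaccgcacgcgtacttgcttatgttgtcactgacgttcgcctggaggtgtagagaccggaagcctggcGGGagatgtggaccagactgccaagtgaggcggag
Crygd: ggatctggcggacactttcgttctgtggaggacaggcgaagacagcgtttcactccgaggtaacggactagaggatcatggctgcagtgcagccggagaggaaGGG
Grip2: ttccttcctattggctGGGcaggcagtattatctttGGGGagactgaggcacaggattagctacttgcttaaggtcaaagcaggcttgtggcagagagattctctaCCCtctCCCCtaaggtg

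The 6 peaks differ in composition. *Reep1* has 68.5% GC, with 6 runs of G and 7 runs of C, and was the only peak of these 6 with a predicted G4. *Cyp2c29* has 40.1% GC and 3 runs of G, and *Crygd* has 58.5% GC and 1 run. The GFP mock peaks are 106 to 144 bp wide and the Cre mock peaks 136 to 184 bp, near the narrowest width of each list, 106 bp in GFP mock and 132 bp in Cre mock.

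The share of peaks found in a single list fell with score and with width. Among Cre mock peaks with scores of 10 to 14, 80.8% (80.2 to 81.3) overlapped no GFP mock peak, and the share fell through 71.4%, 59.0%, 46.8% and 24.4% to 2.14% (1.11 to 3.71) at scores of 100 or more. In GFP mock the share fell from 74.8% (74.2 to 75.4) through 64.8%, 56.0%, 48.2% and 28.4% to 3.69% (2.27 to 5.64). Scores are not normalised across libraries, so a bin is not the same strength of signal in both lists. By width the unshared share fell from 79.5% below 200 bp to 12.7% at 1600 bp or more in Cre mock and from 77.1% to 1.92% in GFP mock. Wide peaks in Cre mock only were therefore the less rare, with 561 of 4408 against 40 of 2083. Of the unshared peaks, 13.2% in Cre mock and 13.9% in GFP mock lay within 500 bp of a peak of the other list.

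**Figure D1:**
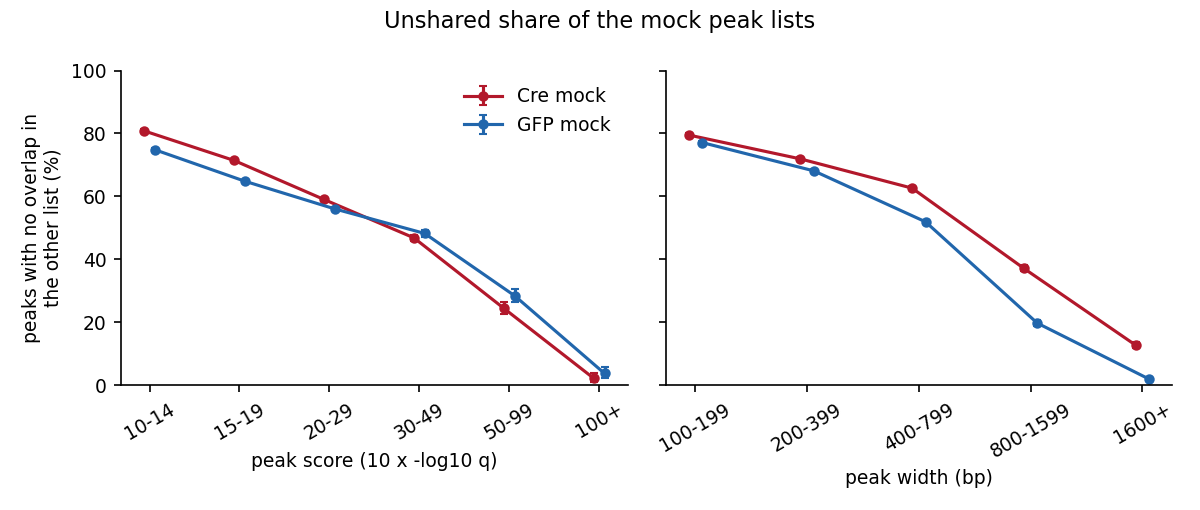
Percent of peaks that overlap no peak of the other mock list, by score (left, 10 times the −log10 q) and by width in bp (right), for Cre mock (red) and GFP mock (blue), with exact 95% intervals. Both curves fall steeply, from 80.8% to 2.14% in Cre mock and from 74.8% to 3.69% in GFP mock over the score bins.

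The lists differed in where their peaks lay in and around genes. Each peak was assigned to the first of start site, gene end (1 kb to either side), coding exon, other exon, intron, other gene or intergenic sequence that it overlapped. Start sites held 12013 Cre mock peaks (13.2%) and 8842 GFP mock peaks (10.1%), and 60.5% (59.6 to 61.3) against 43.9% (42.8 to 44.9) of them were unshared. At gene ends there were 5845 against 3508 peaks, with 77.3% (76.2 to 78.4) against 55.4% (53.7 to 57.0) unshared. In coding exons there were 2572 against 1498, with 76.7% (75.1 to 78.4) against 56.3% (53.7 to 58.8) unshared. Introns were closer, with 23082 against 20119 peaks and 73.8% against 67.8% unshared. Intergenic sequence turned the other way, with 42105 Cre mock and 48036 GFP mock peaks, of which 58.8% (58.4 to 59.3) and 62.7% (62.2 to 63.1) were unshared. Peaks in Cre mock were wider at start sites, with a median of 445 bp against 362 bp, and a wider peak reaches more features.

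**Figure D2:**
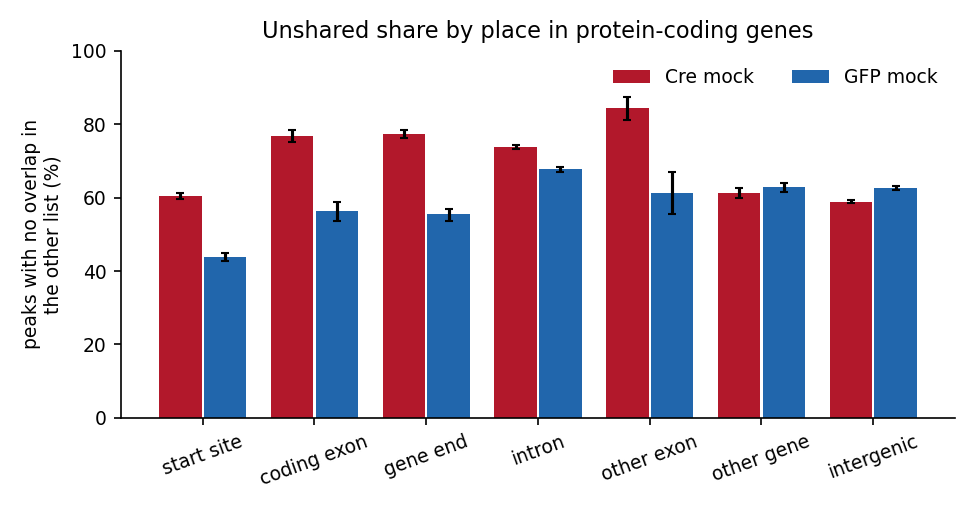
Percent of peaks at each place that overlap no peak of the other mock list, Cre mock (red) and GFP mock (blue), with exact 95% intervals. Bars of Cre mock are taller at start sites (60.5% against 43.9%), coding exons and gene ends, and shorter in intergenic sequence (58.8% against 62.7%).

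The unshared peaks of the lists also differed in repeats. The median unshared peak was 44.7% repeat-masked in Cre mock and 81.3% in GFP mock, and 48.0% against 63.0% of them were more than 50% masked. Shared peaks were alike, at 93.3% and 92.7%. Median GC content was 45.4% in unshared Cre mock peaks and 46.8% in unshared GFP mock peaks, and 43.5% and 43.8% in shared peaks. A predicted G4 lay in 21.8% (21.4 to 22.1) of unshared Cre mock peaks and in 21.2% (20.9 to 21.6) of unshared GFP mock peaks, against 30.4% and 28.8% of shared peaks. Shared peaks were wider, with medians of 508 and 436 bp against 284 and 233 bp. Among peaks of 250 to 499 bp the G4 shares were 23.3% and 25.6% in unshared and 26.8% and 27% in shared peaks.

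By gene, peaks in Cre mock only marked 2988 protein-coding genes, 13.6% (13.2 to 14.1) of all 21951, and peaks in GFP mock only marked 1767, 8.05% (7.69 to 8.42). At start sites the numbers were 3011 genes (13.7%, 13.3 to 14.2) and 1718 (7.83%, 7.47 to 8.19), with 5037 marked in both. These windows cover the starts of all transcripts. With only the 5′-most start site of each gene the numbers were 2616 and 1586. A gene marked in 1 list at its start site often had a peak of the other list in its body outside the start windows, as did 1355 (45.0%) of the Cre mock only start sites and 917 (53.4%) of the GFP mock only ones. In 102 (3.39%) and 27 (1.57%) of these genes a start-site peak itself overlapped a peak of the other list that lay just outside the window, and the same edge touched 37 (1.24%) and 6 (0.34%) of the genes marked in 1 list over body and start site. Of the genes with peaks in a single list over body and start site, 55.4% in Cre mock and 45.3% in GFP mock had a peak at the start site itself. These shares of 13.6% and 8.05% are the background against which the gene classes below are read.

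Most genes of either group rested on 1 peak. That held for 1779 of the 2988 Cre mock only genes (59.5%) and for 1358 of the 1767 GFP mock only genes (76.9%). Genes with 3 or more peaks were more frequent on the Cre side, at 514 (17.2%) against 104 (5.89%). The largest number of peaks was 10 and 8. The best peak of these genes had a median score, each on the scale of its own list, of 20 in Cre mock and 18 in GFP mock, and 10.5% and 10.1% of the genes had a peak in the top decile of scores of their list, a score of at least 33. All peaks of 15.8% of the Cre mock only genes and 11.6% of the GFP mock only genes also lay in the region of another protein-coding gene, so such genes are not separate observations. Among the 10020 genes with peaks in both lists, Cre mock had more peaks in 4789 (47.8%), GFP mock in 2459 (24.5%) and 2772 (27.7%) had equal numbers. The median gene of this group had 3 peaks in Cre mock and 2 in GFP mock.

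The genes with the most peaks in Cre mock and none in GFP mock had 9 or 10 each. *Pitpnb*, a phosphatidylinositol transfer protein, had 10 peaks in Cre mock and 0 in GFP mock, and with doxycycline 6 in Cre DOX and 3 in GFP DOX. Its Cre mock peaks ran from 5.7 to 44.4 kb from the gene's start, 2 of them overlapped exons, and scores lay between 12 and 29. *Ctdp1*, the phosphatase that recycles RNA polymerase II, had 10, 0, 0 and 0 in the same order.

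*Huwe1*, a large ubiquitin ligase, had 9 peaks in Cre mock and 0 in GFP mock, then 4 in Cre DOX and 1 in GFP DOX, and 7 of the 9 overlapped exons. *Hdlbp*, the RNA-binding protein vigilin, had 9, 0, 5 and 5. *Urb1*, a ribosome biogenesis factor, had 9, 0, 1 and 2, *Mbnl2*, a splicing regulator, had 9, 0, 1 and 3, and *Prkcb*, a protein kinase C, had 9, 0, 0 and 1. In none of these 7 genes did a Cre mock peak score above 42. All but *Ctdp1* had a peak in GFP DOX, so absence from GFP mock was not absence from every library with *Rtel1* in place.

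The mirrored genes of GFP mock had 5 to 8 peaks each. *Sybu*, a neuronal transport adaptor, had 0 peaks in Cre mock and 8 in GFP mock, then 5 in Cre DOX and 3 in GFP DOX, with a best score of 68. *Sptb*, the erythrocyte spectrin, had 0, 6, 2 and 2 (best score 64). *Otx1*, a transcription factor of the developing brain, had 0, 5, 0 and 3, along most of its 8.13 kb, and 4 of the 5 overlapped exons. *Cdh1*, the epithelial E-cadherin, had 0, 5, 0 and 0. *Dmc1*, the recombinase of meiosis, had 0, 5, 0 and 1.

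*Clstn2*, a postsynaptic adhesion protein, had 0, 5, 0 and 1 peaks in a gene of 589 kb. *Ttc38* had 0, 6, 3 and 2, and *Mtm1*, a phosphoinositide phosphatase, had 0, 5, 5 and 0. Peaks of *Sybu*, *Ttc38* and *Mtm1* were thus present in Cre DOX, where *Rtel1* was also deleted. Exons were overlapped by 1 of 8 peaks in *Sybu* and by none of 5 in *Mtm1* and *Dmc1*.

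Among genes with peaks in both lists the largest differences in number came to 23 or more peaks on the Cre side and 12 to 16 on the GFP side. *Mad1l1*, a spindle checkpoint protein, had 36 peaks in Cre mock and 6 in GFP mock, then 5 in Cre DOX and 14 in GFP DOX. *Trio*, a guanine nucleotide exchange factor, had 31, 6, 13 and 9. *Ubr4*, a ubiquitin ligase, had 29, 4, 15 and 10, and 20 of its 29 Cre mock peaks overlapped exons against none of the 4 in GFP mock. *Kirrel*, an adhesion protein, had 37, 14, 16 and 19. Cre mock had the most peaks of the 4 libraries in each of these 4 genes. The rule also gave *Gm20388* (377 against 247) and *Gm37240* (53 against 29), gene models of 4430 and 1390 kb that span many other genes and whose peaks cannot be assigned to them.

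On the GFP side, *Il1rapl1*, a synaptic receptor of 1370 kb on the X chromosome, had 22 peaks in Cre mock and 38 in GFP mock, then 58 in Cre DOX and 21 in GFP DOX. *Frmpd4*, a synaptic scaffold on the X chromosome, had 23, 38, 44 and 28. *Egfem1* had 15, 29, 24 and 17, and *Dach2*, a transcription cofactor, had 12, 24, 39 and 11. *Cntnap2*, a neurexin-like adhesion protein, had 20, 33, 57 and 16, and *Pcdh15*, a protocadherin of the inner ear, had 24, 36, 38 and 14. None of the peaks of these 6 genes overlapped an exon in either mock list. Cre DOX exceeded GFP DOX in all 6, the reverse of the mock libraries, so the order between genotypes was not kept with doxycycline. Among peaks in the top decile of scores the mock difference itself turned in *Il1rapl1*, *Frmpd4*, *Egfem1* and *Pcdh15*, and in *Trio*.

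**Figure D3:**
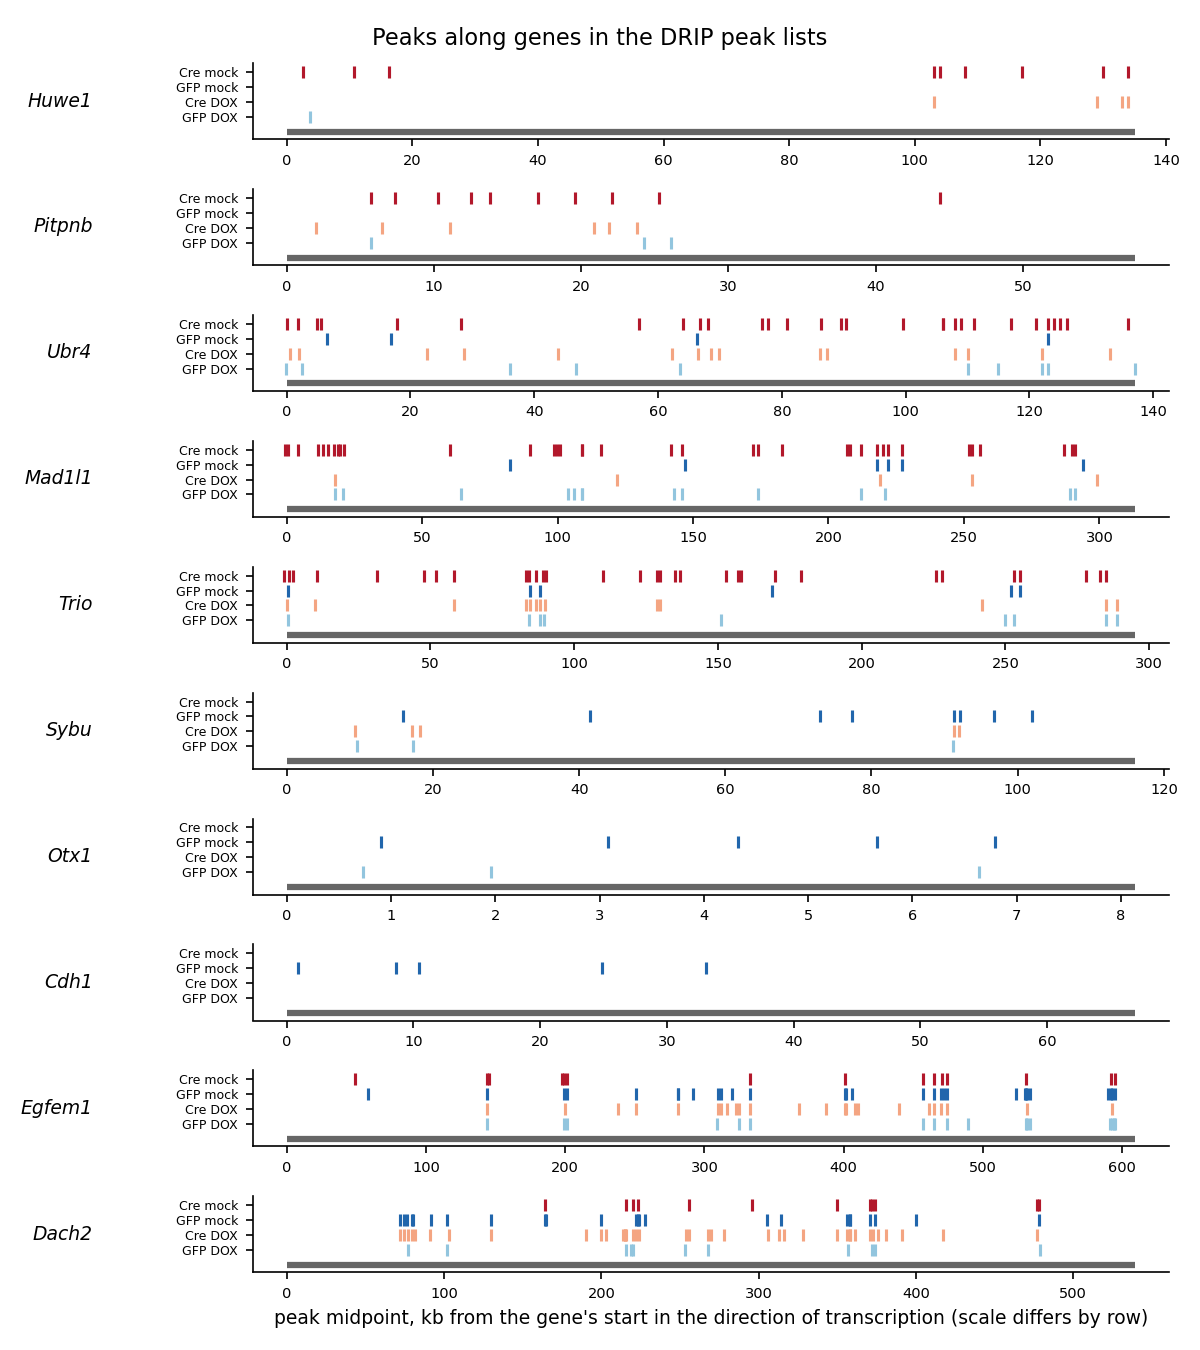
Peak midpoints (vertical ticks) in the 4 DRIP peak lists along 10 genes, in kb from the gene's start in the direction of transcription, with the gene as a grey bar and a scale of its own in each row. *Huwe1*, *Pitpnb*, *Ubr4*, *Mad1l1* and *Trio* carry many Cre mock ticks where GFP mock has 0, 0, 4, 6 and 6, and *Sybu*, *Otx1* and *Cdh1* carry GFP mock ticks where Cre mock has none.

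The start sites with the strongest peak in 1 list only were a mixed set, and many of these genes had peaks of the other list in their body. In Cre mock the first were *Zfp750* (score 115), an epidermal transcription factor, *Cyp2c29* (92), *Shroom4* (91), *Fam98b* (82), *Anks1* and *Taf11* (80, the same peak, over exons of both where the genes overlap head to head), *Scn3a* (79) and *Reep1* (78). The *Zfp750* and *Fam98b* peaks do not stand alone, since each overlapped a GFP mock peak that lay outside the start windows (score 64 in *Zfp750*). The other 6 overlapped none, as did all 8 of GFP mock. GFP mock had peaks in 6 of these 8 genes, with 3 in *Zfp750* and 9 in *Cyp2c29*. *Fam98b*, part of a transfer RNA ligase complex, had 3 peaks in Cre mock and 0 in GFP mock, then 2 in Cre DOX and 1 in GFP DOX, and its start-site peak was 1403 bp wide. *Taf11* encodes a subunit of the general transcription factor TFIID.

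In GFP mock the first were *Synpo2* (92), an actin-binding protein of muscle, *Pou4f3* (71), a transcription factor of hair cells, *Eepd1* (68), *Dbr1* (67), *0610009B22Rik* (60), *Crygd* (59), *Grip2* and *Nsf* (58 each). Some of these start sites are internal to the gene, with the peaks of *Grip2* and *Nsf* 19.3 and 126 kb from its start. *Dbr1*, the enzyme that opens intron lariats, had 1 peak in GFP mock and 0 in each of the other 3 libraries, as had *Pou4f3*, *0610009B22Rik* and *Crygd*. Cre mock had more peaks than GFP mock in the bodies of *Eepd1* (3 against 2) and *Nsf* (5 against 2).

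Gene classes were read against the background shares of 13.6% and 8.05%. Of the 29 classes, 16 held more Cre mock only than GFP mock only genes, 12 held fewer and 1 held equal numbers. Counts moved with the peaks that entered. Over all genes Cre mock only and GFP mock only stood at 3656 and 1836 at a −log10 q of at least 2. With top-decile peaks they stood at 2030 and 1283. The classes furthest to the Cre side were mostly sets that every cell transcribes. Cytosolic ribosomal protein genes were marked in Cre mock only in 25 of 85 (29.4%) and in GFP mock only in 4 (4.71%), with 47 in both. *Rpsa* (best score 52), *Rps23* (48) and *Rps6* (47) led the Cre mock only members, and *Rpl27*, *Rps27a* and *Rpl3l*, a muscle paralog, were among the 4 of GFP mock. Ribosomal protein genes have many near-identical processed pseudogenes, so their reads may have been split between copies. At start sites the numbers were 29 and 5, and at a −log10 q of at least 2 the genes stood at 42 and 3. In the doxycycline pair 16 genes were marked in Cre DOX only and 1 in GFP DOX only. All genes tilted the same way there, at 3216 (14.7%) and 1568 (7.14%). Doxycycline counts of the classes below are to be read against these.

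Subunits of the proteasome, which degrades ubiquitin-tagged proteins, were marked in Cre mock only in 12 of 39 (30.8%) and in GFP mock only in 3 (7.69%), and at start sites in 17 and 3, although among top-decile peaks the genes stood at 2 and 4. *Psmd12* had 2 peaks in Cre mock (best score 47) and 0 in GFP mock, then 3 in Cre DOX and 0 in GFP DOX, and *Psmc3* had 2, 0, 5 and 3. Subunits of oxidative phosphorylation, the mitochondrial respiratory chain and ATP synthase, stood at 25 (27.8%) and 5 (5.56%) of 90, among them *Cox5a* (best score 37), and in the doxycycline pair at 17 and 5, but at 5 and 3 with top-decile peaks. The symbols of this class take in *Cox11* (best score 45, Cre mock only), an assembly factor rather than a subunit. Translation initiation and elongation factors stood at 15 (22.1%) and 1 (1.47%) of 68, and closer in the doxycycline pair, at 7 and 4. *Eif3c* had 7, 0, 2 and 2 peaks in the same order of libraries. The lone GFP mock only symbol of this class, *Eef1akmt3*, encodes a methyltransferase of an elongation factor rather than a factor itself. Transcription and splicing machinery stood at 17 (25.4%) and 5 (7.46%) of 67, with *Gtf2a2*, *Snrpd1* and *Hnrnpm* on the Cre side.

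Replication and telomere genes also lay above the background in Cre mock only. DNA replication and checkpoint genes were marked in Cre mock only in 15 of 62 (24.2%) and in GFP mock only in 3 (4.84%), and in the doxycycline pair again in 15 and 3. *Dna2*, a nuclease-helicase, had 4 peaks in Cre mock and 0 in GFP mock, then 2 in Cre DOX and 0 in GFP DOX, *Rad9a*, a checkpoint clamp subunit, had 3, 0, 2 and 3, and *Gmnn*, the licensing inhibitor geminin, had 2, 0, 1 and 0. *Wee1*, *Gins3* and *Topbp1* were the 3 of GFP mock, each with 1 peak. Telomere and shelterin genes stood at 6 (27.3%) and 1 (4.55%) of 22, and in the doxycycline pair at 2 and 1, or 1 and 3 at start sites. *Dkc1*, the telomerase RNA-binding dyskerin, had 4, 0, 4 and 2 peaks, and *Tnks* had 0, 2, 0 and 1. *Rtel1* itself had 2, 0, 1 and 0 peaks, which do not measure its deletion.

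Factors that process R-loops and G4s stood at 7 (16.3%) and 2 (4.65%) of 43, and most, 31 genes, had peaks in both lists. The Cre mock share was near the background of 13.6% with all peaks. The class stood at 16 and 3 at a −log10 q of at least 2, where all genes stood at 3656 and 1836. With top-decile peaks it stood at 11 and 1, where all genes stood at 2030 and 1283. It stood at 7 and 2 with equal numbers of peaks and at 9 and 3 with at most 50% repeat-masked. *Top3b*, a topoisomerase of RNA and DNA, had 4 peaks in Cre mock and 0 in the other 3 libraries. *Thoc1*, of the THO complex of messenger RNA export, had 3, 0, 2 and 1, and *Brca1* had 2, 0, 2 and 0. *Xrn2*, the exonuclease of transcription termination, had 0, 1, 1 and 0, and *Brca2* had 0, 1, 2 and 0. Over the whole class Cre mock had 120 peaks and GFP mock 64, against 46466 and 35734 over all protein-coding genes. *Rnaseh1* had no peak in any library.

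Stress, fibroblast and growth response classes had Cre mock only shares of 15.4% to 20.6%, against the background of 13.6%, and most had GFP mock only shares under 8.05%. In actin, collagen and immediate early genes, at 16.3%, 15.9% and 15.4%, the Cre mock only share was near the background. Genes of the p53 response stood at 7 (20.6%) and 3 (8.82%) of 34, at 11 (32.4%) and 4 (11.8%) at start sites, and at 2 and 3 with top-decile peaks. *Zmat3* and *Gdf15* had 2 peaks each in Cre mock and 0 in GFP mock, and *Ppm1d*, *Gadd45a* and *Btg2* had 1 each in GFP mock and 0 in Cre mock, so members with related roles fell on both sides. Matrix and secreted genes stood at 9 (18.8%) and 2 (4.17%) of 48, with *Thbs1* at 3, 0, 0 and 1 peaks and *P4ha1* at 4, 0, 1 and 0. Actin, myosin and tubulin genes stood at 8 (16.3%) and 2 (4.08%) of 49, at 15 and 1 at a −log10 q of at least 2 and at 15 and 4 with top-decile peaks. *Vcl*, the adhesion protein vinculin, had 7, 0, 4 and 6 peaks, and *Tagln*, of contractile cells, had 0, 1, 1 and 0. Immediate early and growth response genes stood at 6 (15.4%) and 1 (2.56%) of 39, including *Jun*, *Cxcl1* and *Dusp1* for Cre mock and *Ccl2* for GFP mock, but at 2 and 4 with doxycycline, and collagens at 7 (15.9%) and 1 (2.27%) of 44, or 5 and 6 with top-decile peaks.

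Classes with more GFP mock only genes were mostly those of other tissues and of the embryo. Hox genes, which set position along the body axis, stood at 1 of 39 (2.56%) in Cre mock only, *Hoxa11*, and 6 (15.4%) in GFP mock only, led by *Hoxc12* and *Hoxd9* (score 38 each) and *Hoxa2* (28). The remaining 24 with peaks had them in both lists, and total peaks were close, at 79 and 74. At a −log10 q of at least 2 Hox genes stood at 6 and 7, replication-dependent histones at 4 and 5 and keratins at 6 and 7, each 1 gene apart. Replication-dependent histone genes stood at 6 (8.96%) and 12 (17.9%) of 67, with 13 and 20 peaks in all. *Hist3h2ba*, *Hist1h3d* and *Hist1h2bb* were highest for GFP mock, and *Hist2h2aa2*, *Hist1h3a* and *Hist1h1b* for Cre mock. Histone genes, too, have near-identical copies. In the doxycycline pair they stood at 9 and 1, the reverse order.

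Classical cadherins stood at 0 and 5 of 23 (21.7%), *Cdh1*, *Cdh15* and *Cdh7* among them, with 141 and 193 peaks in all, but at 5 and 2 with top-decile peaks. Wnt ligands and Frizzled receptors stood at 1 (3.45%) and 4 (13.8%) of 29, or 4 and 0 with top-decile peaks, with *Fzd10*, *Wnt1* and *Wnt2* marked in GFP mock only and *Fzd8* in Cre mock only. Keratins and keratin-associated proteins stood at 10 (9.52%) and 18 (17.1%) of 105, cytochromes P450 at 8 (8.60%) and 13 (14.0%) of 93, with *Cyp7a1*, the rate-limiting enzyme of bile acid synthesis, in GFP mock only, and potassium channels at 9 (9.68%) and 12 (12.9%) of 93. The differences in cytochromes P450 and potassium channels turned at a −log10 q of at least 2, to 14 and 12 and to 16 and 10 genes.

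Chemosensory receptors were also counted. Odorant receptors, expressed in the nose, stood at 30 (2.74%) and 58 (5.31%) of 1093, with 952 free of peaks in both lists, and vomeronasal receptors stood at 12 (3.67%) and 25 (7.65%) of 327, with 81 marked in both lists, or 12 and 9 with top-decile peaks. With all peaks both receptor classes lay below the background of 13.6% in Cre mock only and of 8.05% in GFP mock only. In the doxycycline pair the odorant receptors stood at 95 in Cre DOX only and 9 in GFP DOX only. As shares of the class both lay below those over all genes, 14.7% and 7.14%. Defensins stood at 0 and 4 (6.25%) of 64, below the background of 8.05%, and at 1 and 1 at a −log10 q of at least 2. Large genes of neuronal adhesion, synapse and fragile sites, with a median length of 1100 kb, were marked in both lists in 58 of 60, and *Robo2* and *Pcdh9* were the 2 of GFP mock only, an order that turned among top-decile peaks. They held 768 Cre mock and 926 GFP mock peaks. Solute carriers (47 and 36 of 361), zinc finger genes (40 and 30 of 394), other developmental transcription factors (22 and 19 of 175), glutamate and GABA receptors (3 and 4 of 45) and clustered protocadherins (1 and 1 of 57) had closer numbers with all peaks. This did not hold throughout. Solute carriers stood at 74 and 35 and clustered protocadherins at 4 and 0 at a −log10 q of at least 2. Zinc finger genes stood at 51 and 21 from 132 bp in width, a limit that removed GFP mock peaks only.

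**Figure D4:**
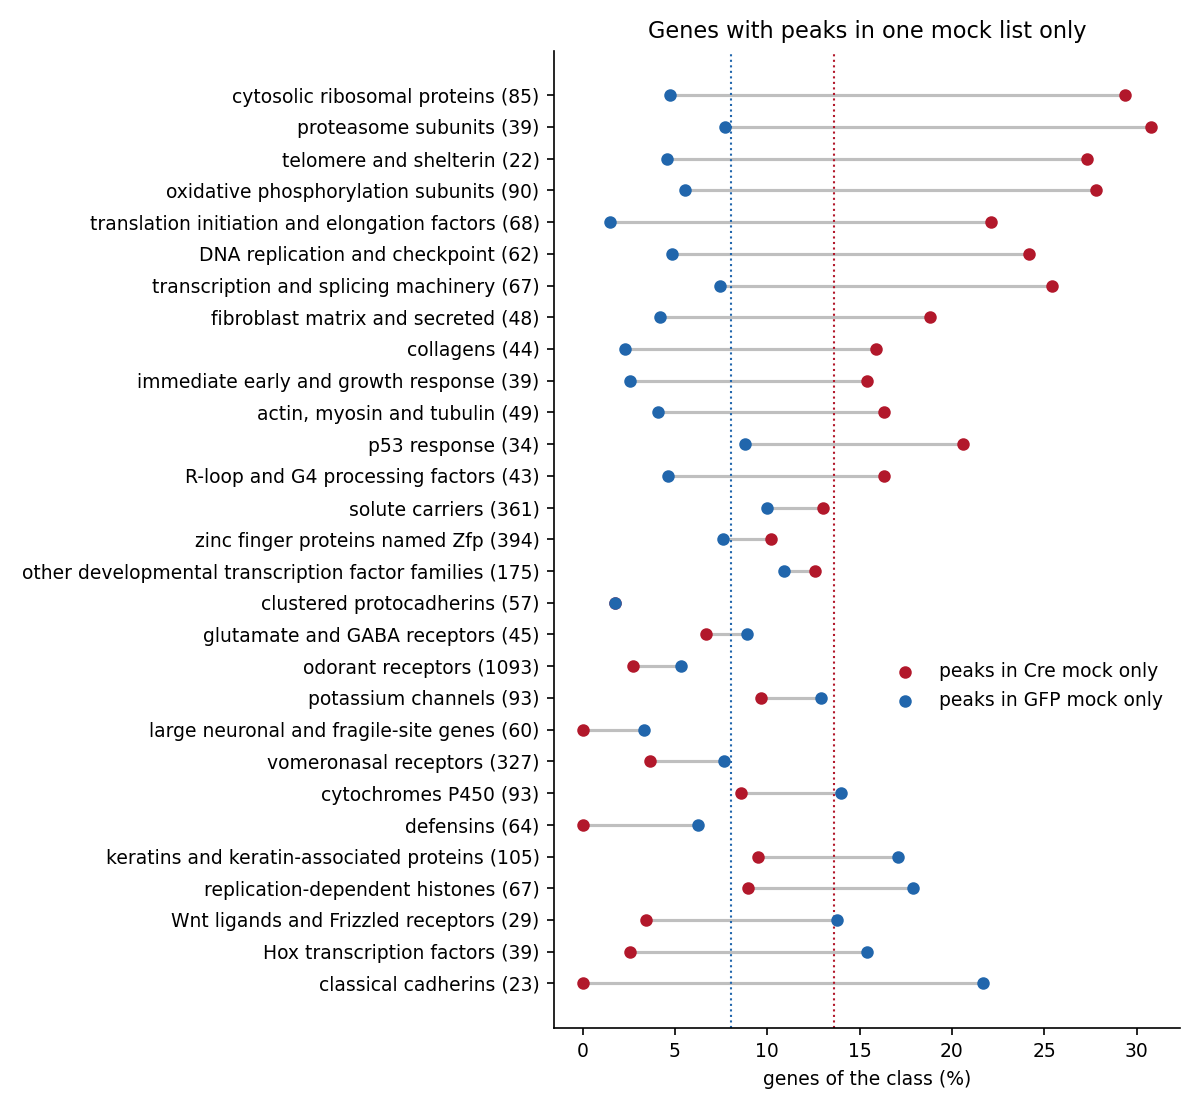
Percent of the genes of each class with peaks in Cre mock only (red) or GFP mock only (blue), with the number of genes in brackets and dotted lines at the shares over all protein-coding genes, 13.6% and 8.05%. Ribosomal, proteasome, telomere and respiratory genes sit far right of the red line, and cadherins, Hox, Wnt and histone genes have the blue point on the right.

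The tilt between the lists moved with the CpG content of start sites, which is high in broadly expressed genes. The CpG ratio, observed over expected CpG in the 500 bp to either side of the 5′-most start site, had a median of 0.66 in Cre mock only genes, 0.43 in GFP mock only genes, 0.69 in genes marked in both and 0.24 in genes marked in neither. A ratio of 0.6 or more was found in 58.0% of Cre mock only and 36.6% of GFP mock only genes, against 46.0% of all. Below a ratio of 0.2, 398 genes were marked in Cre mock only and 446 in GFP mock only, 0.892 of the former per gene of the latter. This quotient rose to 1.08, 1.54, 2.54 and 2.94 in the next bins and was 2.36 at 1 or more. The doxycycline pair did not rise in this way, with 2.88 in the lowest bin and 2.16 at 0.8 to 1. CpG content did not order the classes throughout. Hox, Wnt and Frizzled and histone genes have median ratios of 0.68, 0.75 and 0.88, yet held more GFP mock only genes.

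Gene length was binned in the same way, without regard to CpG content. By body or start site there were 1.68 to 1.77 Cre mock only genes per GFP mock only gene in each length bin up to 100 kb, and the quotient was 0.919 at 100 to 300 kb (102 and 111 genes) and 0.9 from 300 kb (9 and 10). Numbers of peaks were 1.5 times as high in Cre mock at 10 to 30 kb, 1.21 times at 100 to 300 kb and 0.971 times from 300 kb. At start sites the mock quotient stayed above 1, at 1.40 (285 and 203 genes) and 1.10 (79 and 72) in these bins. In the doxycycline pair the quotient of genes rose with length by body or start site, from 1.38 (163 and 118 genes) to 7.50 (45 and 6). At start sites it fell from 1.35 to 1.00. Median lengths were nevertheless alike, at 16.7 kb for Cre mock only and 17.6 kb for GFP mock only genes.

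**Figure D5:**
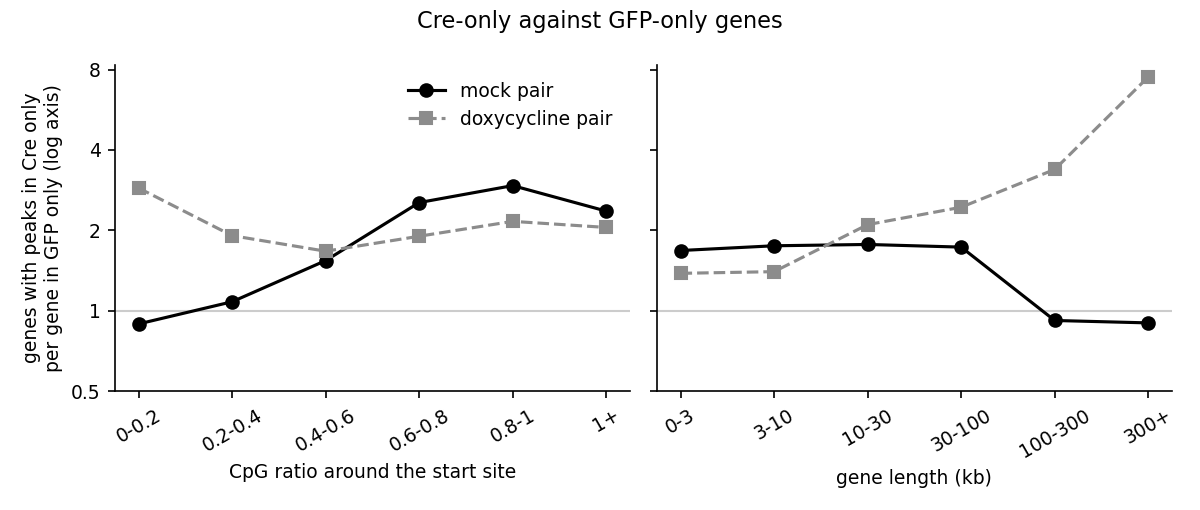
Genes with peaks in the Cre list only per gene with peaks in the GFP list only (log axis), counted over body or start site, by the CpG ratio around the start site (left) and by gene length in kb (right), for the mock pair (black) and the doxycycline pair (grey). The mock quotient rises from 0.892 to 2.94 over the CpG bins and falls below 1 from 100 kb. The doxycycline quotient reaches 7.50 in the longest genes, on 45 and 6 genes.

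Among non-coding genes the class with the largest tilt was small nucleolar RNA, whose genes mostly lie in introns of ribosomal protein and other housekeeping genes. Of 1507, 152 (10.1%) were marked in Cre mock only and 36 (2.39%) in GFP mock only, a quotient of 4.22 against 1.69 for protein-coding genes. Long intergenic non-coding RNA genes stood at 482 and 560 of 5854 (0.861), and processed pseudogenes at 348 and 438 of 9940 (0.795). A peak in a host gene is counted for its small nucleolar RNA as well, so these are not further evidence for the host genes.

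Chromosomes differed far more in peak density than the lists did. Cre mock and GFP mock had 15.8 and 14.9 peaks per Mb on chromosome 12 and 60.4 and 60.1 on chromosome 15. Genes with peaks in both lists made up 37.2% of the genes of chromosome 12 and 67.1% of those of chromosome 15. Cre mock had fewer peaks than GFP mock on chromosome 3 (7798 and 8047) and on the X chromosome (6587 and 7374) and at least as many on every other chromosome. The X chromosome was also the one on which more GFP mock (59.3%) than Cre mock peaks (55.7%) were unshared, and it carries *Il1rapl1*, *Frmpd4* and *Dach2*. Its genes still stood at 119 in Cre mock only and 81 in GFP mock only of 948.

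The doxycycline libraries give a second comparison between the genotypes, in cells that also had RNaseH1 induced. There 3216 genes (14.7%) had peaks in Cre DOX only and 1568 (7.14%) in GFP DOX only. Of the 2988 Cre mock only genes, 740 (24.8%, 23.2 to 26.4) were marked in Cre DOX only and 329 (11.0%, 9.91 to 12.2) in GFP DOX only. Of the 1767 GFP mock only genes, 481 (27.2%, 25.2 to 29.4) were marked in Cre DOX only and 200 (11.3%, 9.88 to 12.9) in GFP DOX only. The quotients were 2.25 and 2.40, and 2.05 over all genes, so the tilt towards Cre DOX was no larger for Cre mock only than for GFP mock only genes. At start sites the quotients were 1.24, 1.22 and 1.21.

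Presence as such did differ. Peaks in both doxycycline libraries were found in 26.5% of Cre mock only and 13.8% of GFP mock only genes, and in neither library in 37.7% and 47.7%. By peak, 35.2% of unshared Cre mock peaks and 34.3% of unshared GFP mock peaks overlapped a Cre DOX peak, and 18.9% and 12.9% overlapped a GFP DOX peak. For shared peaks these were 73.5% and 72.7% in Cre DOX and 59.3% and 59.0% in GFP DOX. The Cre DOX list is the largest, with 105081 peaks over 89.0 Mb, against 60219 over 32.1 Mb in GFP DOX, and this moves with each of these shares. Its part in them was not tested.

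Properties of the lists moved with the comparison as well. Cre mock covered 47.6 Mb and GFP mock 36.2 Mb, and the median peak was 343 and 295 bp wide. *Actb*, which is transcribed in all cells, had 2 and 1 peaks in Cre mock and GFP mock and 1 in either doxycycline list, and *Bcl6* had a peak in Cre DOX alone. Of 10 fibroblast marker genes, 6 had a peak in Cre mock, among them *S100a4* and *Col1a2*, which had none in GFP mock. Likewise 6 had a peak in GFP mock, among them *Pdgfra* and *Thy1*, which had none in Cre mock. Markers of blood had peaks in 3 of 5 in each list, markers of neurons in 2 and 3 of 4, and those of liver in 0 of 3, so peaks alone do not tell the cell type. Counting a gene only where a peak's midpoint lay in its region left 2985 Cre mock only and 1802 GFP mock only genes, and at start sites 2969 and 1805. With peaks from 132 bp in both lists the genes stood at 3809 and 1320. That limit is the narrowest width of Cre mock, so it removed GFP mock peaks only, which fell from 87613 to 69475. The part of covered length was not tested.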

How the data were processed

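DRIP-seq was carried out in Rtel1F/F;WT RNH1-GFP MEFs in 4 conditions with 1 DRIP library each; the 4 input samples were not analysed here. Groups were taken from the labels. The authors trimmed and aligned the single-end reads (BWA, mm10) and called peaks with MACS2 in each library. The deposited lists are in broad-peak format, although the command given names narrow peaks, and whether inputs served as controls is not given in the sources used here. The deposited score, the fold enrichment over local background and the −log10 p and q values are those of the peak caller. They carry no normalisation across libraries, so scores of different lists are not on a common scale. Wider calls reach more genes, so peak midpoints were also counted, and depth could not be corrected for.

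Peaks were intersected with each other and with GENCODE M21 protein-coding genes in Python 3.11.15 (pandas 2.3.3, numpy 2.4.6, pysam 0.24.0), and the overlap code was tested on simulated data. Intervals are Clopper-Pearson at 95% (scipy 1.17.1), with no test between conditions. Predicted G4s had an absolute G4Hunter score of at least 1.5 in 25 bases. Repeats are the lower-case bases of GRCm38.p6. Genes were named by rule: the 8 with most peaks in 1 list only, the 8 strongest start sites in 1 list only, the 6 largest differences in each direction, and up to 3 per class and list by best score. One gene named by this rule is not reported here. *S100a4*, *Col1a2*, *Pdgfra* and *Thy1* were named after their values were seen. Members, classes and lists were chosen with earlier results of these data known, and 9 classes are hand lists and 20 symbol patterns. Alternatives were score, width, repeat and overlap filters, equal numbers of peaks, midpoints, start-site windows and Entrez genes.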

Additional observations from a re-analysis of the deposited data

Results flagged for a closer look

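For 13 of the 29 gene classes the difference between genotypes had the opposite sign with doxycycline, which flagged them. This was not tested, as each condition has 1 library. Given as genes in Cre DOX only minus genes in GFP DOX only, with the mock difference after it, the values were 86 and -28 for odorant receptors, 44 and -13 for vomeronasal receptors, 8 and -6 for replication-dependent histones, 8 and -5 for cytochromes P450, 6 and -5 for classical cadherins, 4 and -4 for defensins, 4 and -3 for Wnt ligands and Frizzled receptors, 4 and -1 for glutamate and GABA receptors, 3 and -3 for potassium channels, 2 and -2 for large neuronal and fragile-site genes and 1 and -5 for Hox genes. They were -2 and 5 for immediate early genes and -2 and 3 for other developmental transcription factors. Over all protein-coding genes 3216 were in Cre DOX only and 1568 in GFP DOX only.

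The same held for peaks in 9 of the 12 genes with the largest mock difference. Peaks in Cre DOX minus GFP DOX were -19 in *Gm20388*, -9 in *Mad1l1* and -3 in *Kirrel*, where the mock differences were 130, 30 and 23. They were 37 in *Il1rapl1*, 16 in *Frmpd4*, 7 in *Egfem1*, 41 in *Cntnap2*, 28 in *Dach2* and 24 in *Pcdh15*, where the mock differences were -16, -15, -14, -13, -12 and -12.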

How the results depend on the processing

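No paired analysis was possible because each condition has 1 library and all labels carry the same replicate number. The unshared share of Cre mock peaks was 64.8% and of GFP mock peaks 61.5%. In this order they were 70.1% and 65.0% at a −log10 q of at least 2, 71.6% and 68.9% at 3, 70.1% and 67.9% in the top decile of scores, 64.1% and 62.1% with equal numbers of peaks, 68.1% and 56.5% from 132 bp in width, 75.3% and 64.7% with at most 50% repeat-masked, 78.7% and 72.8% where at least 50% of a peak had to be covered, and 56.3% and 53% where a peak within 500 bp counted as shared. The Cre mock share was the larger in all of these. Cre mock only genes outnumbered GFP mock only genes under every alternative tried, by body or start site (2030 to 3809 against 1283 to 1884) and at start sites. The width limit of 132 bp removed peaks from GFP mock only, so under it the numbers of genes could move only towards Cre mock. Start-site numbers fell to 1378 and 707 at a −log10 q of at least 3 and to 1061 and 552 in the top decile.

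Of the 29 classes, the difference between Cre mock only and GFP mock only genes changed sign in 5 at a −log10 q of at least 2 (vomeronasal receptors 8, cadherins 1, potassium channels 6, glutamate and GABA receptors 1, cytochromes P450 2), in 8 in the top decile (p53 response -1, large neuronal genes 3, other developmental transcription factors -1, vomeronasal receptors 3, collagens -1, cadherins 3, proteasome -2, Wnt and Frizzled 4), in 2 by width (potassium channels 5, cytochromes P450 3), in 1 with equal numbers (other developmental transcription factors -1) and in 0 by repeats. Ribosomal, respiratory, translation, transcription, replication, telomere and R-loop genes kept more Cre mock only genes in each of these 5 settings, and Hox, histone, odorant receptor and keratin genes more GFP mock only genes, although Hox (6 and 7), histone (4 and 5) and keratin genes (6 and 7) were 1 gene apart at a −log10 q of at least 2, and keratin genes also in the top decile (3 and 4) and by width (12 and 13). Of the 190 genes named by rule, the difference in peaks changed sign in *Eepd1* (-1), *Nsf* (-1), *Trio* (-1), *Il1rapl1* (1), *Frmpd4* (1), *Egfem1* (2) and *Pcdh15* (2) in the top decile, in *Eepd1* (-1), *Frmpd4* (1) and *Pcdh15* (2) at a −log10 q of at least 2, and in *Il1rapl1* (1) and *Egfem1* (1) by repeats. The cause was not tested. Depth is unknown, so how far it limits these counts cannot be given.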
